A study of Mus musculus with 6 samples.

Results

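In nuclei of the mouse suprachiasmatic nucleus (SCN), 32285 features were counted. The 100 that most set mature oligodendrocytes apart from the other clusters compared were followed over development. UMIs (molecules counted once each by a unique molecular identifier) were summed over the nuclei of each annotated cluster at PND10 and PND30 and divided by all UMIs of that cluster to give counts per 1000000 (CPM). Among the 3767 features with at least 50 CPM in mature oligodendrocytes, the 100 with the largest ratio of that cluster over the highest other cluster were taken, after adding 5 CPM to both. The clusters compared were mature oligodendrocytes, oligodendrocyte precursor cells (OPCs), mature astrocytes, microglia and 5 clusters of neurons (Avp+, Vip+, Cck+, Nms+ and extra-SCN). Early SCN neurons, unidentified neuronal cells, endothelial cells, and immature astrocytes with ependymal cells were left out of the rule. The deposited files used here do not pair the features with gene names. Each member is therefore called by its rank in this ratio, and the cell types are those of the authors' annotation, which could not be checked against marker genes here.

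SCN tissue was micro-dissected from untreated wild-type C57BL6/J mice on gestational day (GD) 17.5 and on postnatal days (PND) 2, 10 and 30. Nuclei were isolated from a pool of 10 animals of both sexes per stage. Of the 6 libraries, PND10 and PND30 had 2 apiece, and the earlier stages had 1 apiece. The library preparation was repeated for PND10 and PND30, and no source used here says whether the repeat drew on other animals, so that p-values cover only the spread between libraries. Of 22796 annotated nuclei, 22790 could be placed in 1 library, with 10921890 to 31389145 UMIs per library and a median of 3144 to 12106 UMIs per nucleus. Any pair of libraries had between 0 and 83 cell barcodes of their count matrices in common.

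Oligodendrocytes wrap axons in myelin, the lipid-rich sheath that speeds conduction. They arise from OPCs, which divide, move into the tissue and, on leaving the cell cycle, first become newly formed and then myelinating oligodendrocytes. Genes of this lineage are switched on in successive steps, so that a newly formed and a myelinating cell share part of their expression only. Since myelin transcripts are abundant, a little of them released from broken cells can also be counted in droplets that hold other nuclei.

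The members ranged from 53.2 to 18415 CPM in mature oligodendrocytes, with a median of 235.8 CPM. Their ratio over the highest other cluster ranged from 4.73 to 200, with a median of 7.94; 36 members had a ratio over 10 and 8 had one over 50. The member at rank 1 alone gave 23.5% of all member UMIs in the cluster, and the 10 most abundant members gave 56.2%. The cluster with the next highest level was OPCs for 41 members, mature astrocytes for 21, extra-SCN neurons for 12, Cck+ neurons for 10, microglia for 10, Nms+ neurons for 5 and Vip+ neurons for 1. At the threshold, rank 100 had 1141 CPM and a ratio of 4.73 over OPCs, and the next feature, just outside, had 699 CPM and a ratio of 4.72 over microglia. All these values chose the members and are a description only. In clusters outside the rule some members were higher than in mature oligodendrocytes of the same library. Rank 12 was at 792 and 729 CPM in endothelial cells of GD17.5 and PND2, against 0 and 47.0 CPM. Rank 84 was at 288 CPM in immature astrocytes and ependymal cells of PND10 replicate 1, against 171 CPM.

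The list depended on the stage it was taken from. Applied to PND10 nuclei alone, the same rule shared 66 features with the members, and applied to PND30 nuclei alone it shared 64. The 2 single-stage lists of 100 had 37 features in common, 37% of each. The 100 features chosen at PND10 had a median ratio of 4.08 in the PND30 nuclei, which had no part in that choice, and 8 of them had a ratio under 1. Those chosen at PND30 had a median ratio of 3.12 in the PND10 nuclei, and 15 of them had a ratio under 1.

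In mature oligodendrocytes, the 100 members together made up 4.48% of UMIs at GD17.5 (95% exact Poisson interval 4.20 to 4.78) and 5.42% at PND2 (5.20 to 5.64). At PND10 they made up 6.61% and 6.39% in the 2 libraries, and at PND30 10.1% and 9.21%. The share was thus 6.50% ± 0.160 at PND10 and 9.63% ± 0.597 at PND30 (SD, n = 2 libraries each), 1.48-fold higher with no overlap of the libraries. Without rank 1 the ratio was 1.11, an alternative added after the values had been seen, and for members chosen on PND10 nuclei alone it was 0.991. The cluster held 4 nuclei at GD17.5 and 7 at PND2, followed by 20 and 49 at PND10 and by 10 and 79 at PND30. Poisson intervals cover counting error only, and with 4 and 7 nuclei the early values rest on few cells.

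In OPCs the members together made up 0.256% of UMIs at GD17.5 and 0.304% at PND2, then 0.422% and 0.397% at PND10 and finally 0.455% and 0.596% at PND30. These libraries held 103, 183, 77, 268, 15 and 46 OPC nuclei. In neurons the share was 0.253% at GD17.5 and 0.235% at PND2, with 0.207% and 0.221% at PND10 and with 0.186% and 0.198% at PND30. OPCs and neurons therefore had like shares at GD17.5, with OPCs above neurons in each later library. The OPC level of PND30 was 2.05 ± 0.391 times that of GD17.5 (SD over the PND30 libraries), and 1.15 times for members chosen on PND30 nuclei alone. Mature astrocytes and microglia stayed between 0.148% and 0.256% in all libraries that held them. Endothelial cells had 0.219% to 0.460% in the 5 libraries that held them, with 1 to 16 nuclei apiece, and the lowest value was that of the single nucleus.

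**Figure D1:**
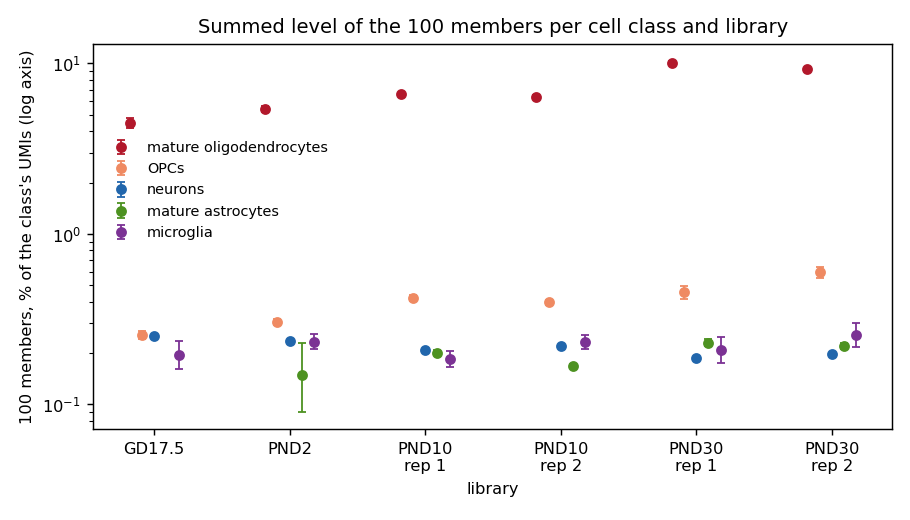
Summed level of the 100 members as a percentage of all UMIs of a cell class (vertical log axis) in each of the 6 libraries (horizontal axis), with 95% exact Poisson intervals as bars. Mature oligodendrocytes sit between 4.48% and 10.1%, OPCs between 0.256% and 0.596%, and the other 3 classes shown between 0.148% and 0.256%.

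Within mature oligodendrocytes the members divided by stage. Of the 100 members, all of which passed the filter on low counts, 43 were higher and 16 were lower at PND30 than at PND10, and 41 did not pass the test (edgeR quasi-likelihood test, Benjamini-Hochberg adjusted p under 0.05 over 4534 features). Over all features tested, 10.3% were higher and 6.88% lower. Among tested features with at least 50 CPM in the cluster, as the members have, 10.4% were higher and 7.61% lower. The median log2 change was 0.61 over the members and -0.01 over all features. The rule pooled both stages and did not use this contrast, yet a feature very high at 1 stage could enter through that stage alone. Of the 100 features chosen on PND10 nuclei alone, 14 were higher and 33 lower; of those chosen on PND30 nuclei alone, 63 were higher and 4 lower.

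The member at rank 1 stood at 1224 CPM at GD17.5 and 2117 at PND2, followed by 8661 and 7091 at PND10 and by 37458 and 28625 at PND30. Each PND30 library was above both PND10 libraries, which were above the earlier libraries (log2 change from PND10 to PND30 2.12 ± 0.38 SE, adjusted p = 0.00135). Rank 2 was at 0 at GD17.5 and PND2, at 10.7 and 108 CPM at PND10, and at 5216 and 3284 CPM at PND30 (log2 change 6.11 ± 0.58, adjusted p = 6.52e-06). Rank 4 was listed with no UMI in 3 of the 4 libraries up to PND10, had 19.2 CPM in the other, and reached 3317 and 1927 CPM at PND30, the largest rise of all members (log2 change 7.87 ± 0.59, adjusted p = 2.26e-06). Its PND10 libraries held at most a few UMIs, so that this fitted change depends on the prior count of the fit. Rank 21, at 16 and 0 CPM at PND10 and 509 and 433 CPM at PND30, had the third-largest rise (log2 change 6.04 ± 0.58). None of the ranks 2, 4 and 21 had a UMI in the 11 nuclei of GD17.5 and PND2.

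Rank 3 followed the same order, with 0 and 282 CPM before PND10, 794 and 458 CPM at PND10, and 2896 and 1541 CPM at PND30 (log2 change 1.87 ± 0.37, adjusted p = 0.00252). Rank 7 rose from 171 and 238 CPM at PND10 to 1986 and 1147 CPM at PND30 (log2 change 2.97 ± 0.35, adjusted p = 4.89e-05) and was at 0 and 23.5 CPM before. The PND10 and PND30 libraries did not overlap for either member. Rank 5 stood at 1375 and 1046 CPM at PND10 and 2016 and 1855 CPM at PND30, also without overlap, but did not pass the test (adjusted p = 0.109).

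The members that fell had a different course. Rank 6 stood at 735 CPM at GD17.5 and 1741 at PND2, then 1722 and 1842 at PND10 and finally 411 and 707 at PND30 (log2 change -1.57 ± 0.32, adjusted p = 0.00327). Both PND30 libraries were below the other 4. Rank 17 was at 3037 and 2376 CPM before PND10, at 2681 and 2526 CPM at PND10, and at 714 and 999 CPM at PND30, again with both PND30 libraries lowest (log2 change -1.52 ± 0.31, adjusted p = 0.0031). The largest fall was that of rank 24, from 139 and 150.0 CPM at PND10 to 19.6 and 14.4 CPM at PND30 (log2 change -3.07 ± 0.49, adjusted p = 0.000579), followed by rank 46 and rank 93 (log2 changes -1.86 ± 0.50 and -1.86 ± 0.36). The fall of rank 46 rested on 1 library, with 117 and 25.3 CPM at PND30, and without PND30 replicate 2 its log2 change was -0.78 and did not pass the test.

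Some of the most abundant members belonged to the falling or the uncalled groups. Rank 27 went from 5484 and 5322 CPM at PND10 to 1654 and 3146 CPM at PND30 (log2 change -1.09 ± 0.35, adjusted p = 0.0448). Rank 77 went from 3747 and 3576 CPM to 1301 and 1151 CPM (log2 change -1.52 ± 0.30, adjusted p = 0.00268). Rank 41 held 3918 CPM at GD17.5 and 7151 at PND2, with 4893 and 4553 at PND10 and with 3053 and 5149 at PND30, with PND10 and PND30 overlapping (adjusted p = 0.858). Rank 8 stayed between 2065 and 3330.4 CPM in all 6 libraries (log2 change 0.01 ± 0.30, adjusted p = 0.989).

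Pooled over the libraries of a stage, the 43 members that rose were 1.75 to 206 times higher at PND30, and the 16 that fell were at 0.109 to 0.509 of their PND10 level. These ratios come from the contrast that formed the groups. The count of 16 depended on single libraries: it was 3 without PND10 replicate 1 and 10 without PND10 replicate 2, where the remaining PND10 library is assumed to vary like the others. The count of 43 ranged from 32 to 43 over the 4 libraries left out in turn.

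**Figure D2:**
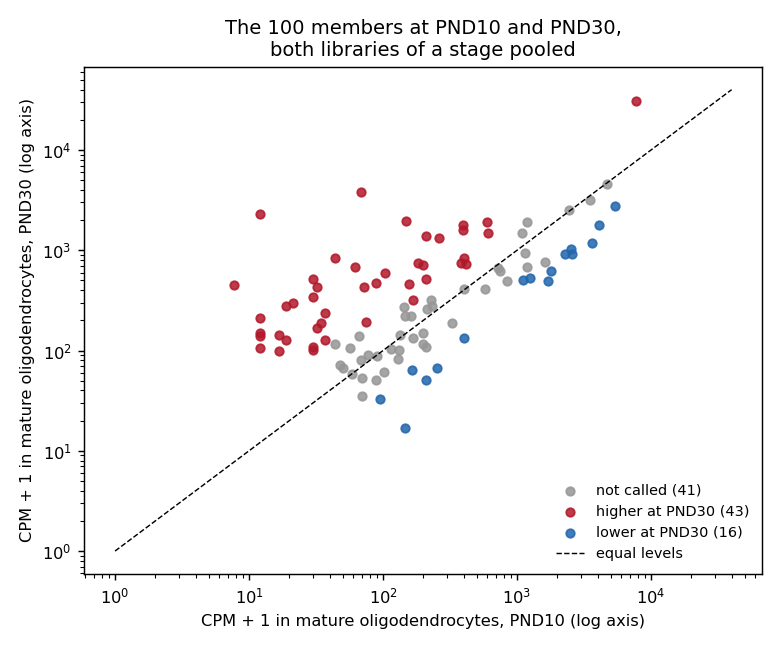
CPM + 1 of each of the 100 members in mature oligodendrocytes at PND10 (horizontal log axis) and PND30 (vertical log axis), both libraries of a stage pooled, coloured by the edgeR call, with a dashed line of equal levels. The 43 members that rose lie up to 206-fold above the line and the 16 that fell lie at 0.109 to 0.509 of their PND10 level.

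The levels of PND10 and PND30 formed the groups of rising and falling members. The libraries of GD17.5 and PND2 had no part in the choice of members or in this contrast. There the 16 members that fell later already made up 2.47% (95% interval 2.26 to 2.69) and 2.62% (2.47 to 2.78) of oligodendrocyte UMIs, against 2.70% and 2.81% at PND10 and, at PND30, 0.898% and 1.18%. The 43 members that rose later made up 0.250% (0.186 to 0.328) and 0.454% (0.392 to 0.523), against 1.48% and 1.24% at PND10 and, at PND30, 7.40% and 5.61%. As summed shares, the early nuclei were thus close to PND10 in the falling members and below it in the rising ones. Single falling members differed. With both early libraries pooled, rank 24 was at 15.9 CPM against 145 at PND10 and rank 93 at 15.9 against 252, on 1 UMI each. Ranks 35, 51 and 71 were above their PND10 level. Rank 1 alone held 25 of the 51 UMIs of the rising set at GD17.5 and 90 of 193 at PND2. It held 1625 of 2769 and 1844 of 3233 at PND10, and 3828 of 7562 and 7933 of 15557 at PND30. The 41 remaining members made up 1.76% and 2.35% before PND10 and between 1.76% and 2.43% afterwards.

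Member by member, the 11 nuclei of GD17.5 and PND2 held UMIs of all 16 members that fell, 15 of them above their PND30 level. They held UMIs of 22 of the 43 members that rose, with 21 at 0 among 62927 UMIs and none above its PND30 level. The groups were formed on the PND30 level, so that the comparison with it is not a result. With counting intervals set against those of the neurons of the same libraries, 59 of the 100 members were already higher in these early oligodendrocytes, where 17.2% of the 3767 features with at least 50 CPM were. These 59 comprised 15 of the 16 members that fell, 13 of the 43 that rose and 31 of the other 41. Members were chosen for a level above neurons at PND10 and PND30, and the early nuclei were annotated to the same cluster. The excess over the background is therefore a description only. The median level of the rising members was 60.3 CPM at PND10, and 3 counts among the 62927 early UMIs correspond to 47.7 CPM, so that many of them would not have been detectable in 11 nuclei at their PND10 level.

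**Figure D3:**
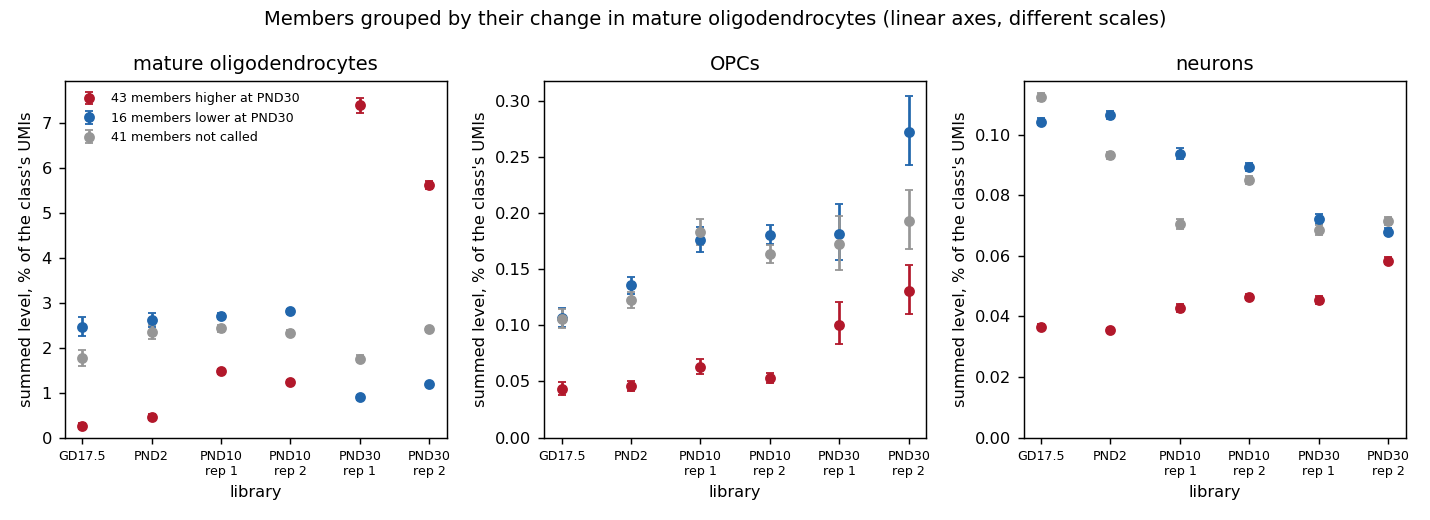
Summed level (vertical linear axes of different scale, % of the UMIs of the class, with 95% exact Poisson intervals) of the members that rose, fell or did not pass the test in mature oligodendrocytes, in mature oligodendrocytes, OPCs and neurons of the 6 libraries. In mature oligodendrocytes the falling members drop to 0.898% and 1.18% at PND30 while the rising ones reach 7.40% and 5.61%, and in OPCs all 3 groups are higher in the PND30 libraries than at GD17.5.

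The sets were also counted in single nuclei. Each oligodendrocyte nucleus was thinned to 750 UMIs to set depth equal. The 43 rising members outnumbered the 16 falling ones in 0 of 4 nuclei at GD17.5 and 0 of 7 at PND2, followed by 4 of 20 and 3 of 49 at PND10 and by 7 of 10 and 58 of 79 at PND30. As percentages these were 20% (95% Clopper-Pearson interval 5.73 to 43.7) and 6.12% (1.28 to 16.9) at PND10, and 70.0% (34.8 to 93.3) and 73.4% (62.3 to 82.7) at PND30. Since the sets were picked from this contrast on the same nuclei, that order is not a result. In the PND30 libraries 3 and 21 nuclei had more of the falling set. The 0 nuclei at GD17.5 and PND2 have upper limits of 60.2% and 41%, so that a difference from PND10 was not detectable there. Across the nuclei of a library, the unthinned shares of the 2 sets correlated at -0.86 and -0.76 at PND30 (Pearson's r over 10 and 79 nuclei), at -0.33 and -0.33 at PND10 (20 and 49 nuclei) and at 0.90 at PND2 (7 nuclei). The correlation was thus most negative at PND30 and weaker at PND10. The sets were picked on the nuclei of these stages, so that these values are a description only. The value at PND2 rests on 7 nuclei with 193 UMIs of the rising set, and nothing is read from it. Both shares have the same total UMIs of the nucleus as denominator. Rank 1 held much of the UMIs of the rising set, and these counts and correlations were not computed without it.

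To read the levels apart from the members that sorted the nuclei, the sides were set by odd-ranked members (19 rising and 9 falling) and the even-ranked ones (24 rising and 7 falling) were read. Rank 1 was thus among the members that sorted and not among those read. In nuclei with more of the rising set, the even-ranked rising members made up 0.880% and 1.22% of UMIs at PND10 and 2.59% and 2.20% at PND30. In the other nuclei they made up 0.123% and 0.135% at PND10 and, at PND30, 0.205% and 0.337%. The even-ranked falling members made up 0.767% and 0.770% of UMIs at PND10 in nuclei without more of the rising set, and 0.810% and 0.693% in the like nuclei of PND30. In nuclei with more of the rising set they made up 0.232% and 0.0222% at PND10 and 0.0349% and 0.0375% at PND30. Thus, the even-ranked rising members were higher at PND30 than at PND10 on either side. All members of both sets were picked from the contrast of PND10 and PND30 on these nuclei, so that these levels are a description with no test. How much of the change of a member between PND10 and PND30 came from the mix of nuclei and how much from levels within a nucleus was not tested.

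**Figure D4:**
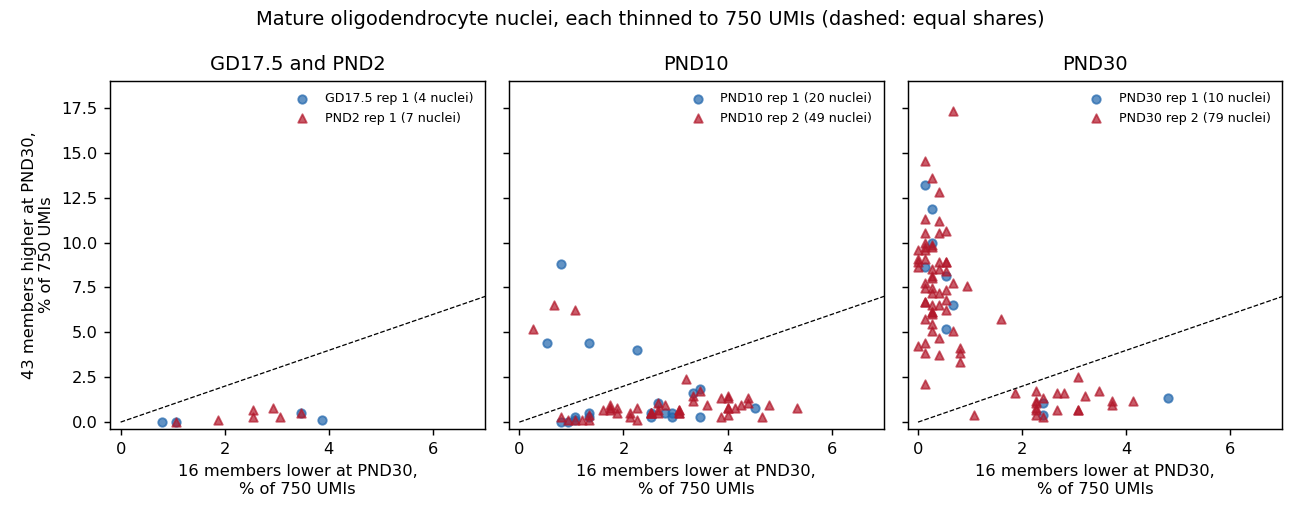
Share of the 16 falling members (horizontal axis) and the 43 rising members (vertical axis) in each mature oligodendrocyte nucleus, as % of 750 UMIs after thinning, by stage, with a dashed line of equal shares. At PND10, 4 of 20 and 3 of 49 nuclei lie above the line, and at PND30, 7 of 10 and 58 of 79.

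In OPCs, levels of single members were set against neurons of the same library, which lie outside the lineage. For some members the neuron level was above that of OPCs, such as rank 27 at 261 CPM against 85.4 CPM at GD17.5. The 95% Poisson interval of the OPC level lay above that of neurons for 18 members at GD17.5 and 24 at PND2, then 39 and 37 at PND10 and finally 23 and 25 at PND30. Among the 3767 features with at least 50 CPM in mature oligodendrocytes, the same held for 30.2%, 27.6%, 21.5%, 29.1%, 14.7% and 15.3%. The count for the members was thus below this background at GD17.5 and PND2. Members were chosen for a lower level in OPCs than in mature oligodendrocytes at PND10 and PND30, which the background features were not. The difference from the background at the early stages is therefore a description only. The levels of OPCs and neurons at PND10 and PND30 entered the choice of members, and nothing is read from the counts of those 4 libraries against the background. The OPC counts held between 112460 UMIs (PND30 replicate 2) and 1021076 UMIs (PND10 replicate 2). Thinned to 112460 UMIs, the members above neurons numbered 11 at GD17.5 and 9 at PND2, with 15 and 16 at PND10 and with 22 and 25 at PND30. Without thinning, the OPC interval lay below that of neurons for 9 members at GD17.5 and 5 at PND2. It did so for 4 and 8 at PND10 and for 0 and 0 at PND30. The share of all features below neurons was not computed.

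Of the 100 members, 50 had an OPC interval above neurons in no library, 50 in at least 1 and 7 in all 6 (ranks 35, 51, 52, 53, 71, 76 and 97). Over the 3767 features, 46.8% did so in at least 1 library and 6.66% in all. The levels of PND10 and PND30 entered the choice of members, so that nothing is read from these shares. For 27 members the OPC interval lay above neurons at GD17.5 or PND2, where the background was 38%, again a description only. The first stage above neurons was GD17.5 for 18 members, PND2 for 9, PND10 for 21 and PND30 for 2. This was not counted over the 3767 features. The PND30 libraries held the fewest OPC UMIs, and at equal depth the counts above neurons were highest there. The order of first stages thus depends on depth and is not read as an onset. Relative to the pooled level in mature oligodendrocytes of PND10 and PND30, the median member stood at 3.49% in OPCs of GD17.5 and PND2 and at 4.83% in OPCs of PND10 and PND30.

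Over the 4 stages in order, 41 members passed the filter on low counts in OPCs. Of these, 18 rose and 1 fell with stage (edgeR quasi-likelihood test for a trend over 6 libraries, 8808 features). Over all features tested, 7.14% rose and 7.13% fell, and among those with at least 50 CPM in mature oligodendrocytes 9.82% rose and 5.32% fell. A member that passed the filter through its PND10 or PND30 level was likely to rise, and the 59 members below the filter were not tested. Without a filter, 16 members rose. Without the single GD17.5 library, 6 rose and 0 fell, and with GD17.5 and PND2 pooled against PND10 and PND30, 8 rose and 1 fell. The trend thus leans on the GD17.5 library, which has no replicate.

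Rank 93 had the steepest rise in OPCs, from 0 CPM at GD17.5 and 1.09 at PND2 to 11 and 29.4 at PND10 and 68.9 and 88.9 at PND30 (log2 change 2.41 ± 0.36 per stage, adjusted p = 0.000155). Each later stage was above the one before. In mature oligodendrocytes this member was among those that fell, from 229 and 269 CPM at PND10 to 58.7 and 68.6 CPM at PND30, where OPCs held as much. Rank 76 stood at 20.9 and 38.0 CPM in OPCs before PND10, at 60.3 and 48.0 CPM at PND10, and at 327 and 311 CPM at PND30, and in neurons at 0.257 to 1.47 CPM (log2 change 1.45 ± 0.19 per stage, adjusted p = 3.17e-05). Rank 52 went from 10.5 and 19.6 CPM through 65.8 and 61.7 CPM to 86.1 and 169 CPM (log2 change 1.30 ± 0.18 per stage, adjusted p = 5.62e-05), with no overlap between stages. Rank 84, the 1 member that fell, went from 99.4 CPM at GD17.5 to 22.8 at PND2, 11 and 6.86 at PND10, and no UMI at PND30 (log2 change -1.76 ± 0.22 per stage, adjusted p = 2.77e-05). In mature oligodendrocytes the same member was at 146 to 188 CPM up to PND10 and at 450.1 and 458 CPM at PND30.

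Between PND10 and PND30 alone, 34 members were tested in OPCs, and 1 rose and 0 fell (edgeR, 6043 features, of which 0.0331% rose and 0% fell). This was rank 76 (log2 change 2.61 ± 0.27, adjusted p = 0.00238). At an unadjusted p under 0.05 there were 10 members. The share of all features at that threshold was not computed, so that nothing is read from this count. DESeq2 called the same number of members, 1 higher and 0 lower. The PND30 libraries held 15 and 46 OPC nuclei. These libraries also enter the trend, so that the 2 tests are not independent.

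The groups formed in mature oligodendrocytes were both present at low level in OPCs. The 16 falling members made up 0.107% of OPC UMIs at GD17.5 and 0.136% at PND2, followed by 0.176% and 0.181% at PND10 and by 0.182% and 0.272% at PND30. The 43 rising members made up 0.0434%, 0.0457%, 0.0630%, 0.0528%, 0.101% and 0.131% in the same order. Of the falling members 10 were tested for the trend in OPCs and 7 rose; of the rising members 15 were tested, 5 rose and 1 fell. Rank 35 is an example of the falling set, at 36.6, 46.7, 73.1, 70.5, 25.8 and 178 CPM in OPCs of the 6 libraries and at 0.402 to 2.64 CPM in neurons.

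The members differed widely in how much of their oligodendrocyte level was present in early OPCs. The highest shares, in OPCs of GD17.5 and PND2 pooled, were those of rank 89 (18.4%), rank 84 (17.8%), rank 77 (17.2%) and rank 99 (16.3%). Of these, rank 77 had 420.1 and 441 CPM in the early OPCs against 259.8 and 301 CPM in neurons. Rank 99 had 26.1 and 36.9 CPM against 29.9 and 29.1 CPM in neurons, and its OPC interval was above neurons in no library. In the early OPCs 9 members had no UMI, among them ranks 2, 14, 19 and 25. Ranks 14, 19 and 25 were at 0 in mature oligodendrocytes of GD17.5 and PND2 as well and reached 587 and 372, 215 and 184, and 215 and 209 CPM there at PND30. A total of 3 counts, the limit that a count of 0 allows, correspond to 5.23 CPM in OPCs of GD17.5 and 3.26 CPM at PND2.

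The member share of single OPC nuclei lay at or below the low end of that of mature oligodendrocyte nuclei. After thinning to 750 UMIs, the 5th percentile of mature oligodendrocyte nuclei of PND10 and PND30 was a member share of 2.53%, a bound that 2 of the 4 nuclei of GD17.5 also fell short of. Of the 692 OPC nuclei none reached it, which allows up to 2.91% of OPCs at GD17.5 and 1.64% at PND2, then 3.90% and 1.12% at PND10 and finally 20% and 6.52% at PND30. Members were chosen for a lower level in OPCs than in mature oligodendrocytes of PND10 and PND30. The bound comes from the same oligodendrocyte nuclei, so that for those stages this is a description only. The highest OPC nucleus of each library lay between 0.8% and 2.13%. The median OPC nucleus, not thinned, held 0.227% of its UMIs in members at GD17.5 and 0.284% at PND2, with 0.380% and 0.343% at PND10 and with 0.449% and 0.480% at PND30. After thinning, which sets depth equal but leaves steps of 1 UMI in 750, the median was 0.267% at GD17.5 and PND2 and 0.4% in the 4 later libraries. Without the 5% of OPC nuclei with the highest share in each library, an alternative added after the values had been seen, the ratio of PND30 over GD17.5 was 2.15, against 2.05 with all nuclei.

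In neurons the members were counted at low level at all stages, and the 6 libraries held 658 to 4916 neurons. Single members differed in course. Rank 1 was at 23.7 CPM at GD17.5 and 25.7 at PND2, followed by 32.0 and 45.8 at PND10 and by 40.9 and 90.4 at PND30, and its PND10 and PND30 libraries overlapped (adjusted p = 0.271). Rank 2 was at 0.191 to 0.383 CPM up to PND10 and at 2.21 and 6.88 CPM at PND30 (log2 change 4.55 ± 0.75, adjusted p = 0.035). Rank 17 fell from 65.7 and 52.7 CPM through 54.1 and 43.9 CPM to 13.6 and 9.34 CPM (log2 change -2.06 ± 0.21, adjusted p = 0.0128). In mature oligodendrocytes rank 2 also rose and rank 17 also fell.

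Between PND10 and PND30, 92 members were tested in neurons, of which 2 rose and 3 fell (edgeR, 18187 features, of which 1.23% rose and 1.89% fell). The median log2 change was -0.20 over the members tested and -0.02 over all features. Besides rank 2, rank 12 rose from 0.729 and 1.38 CPM at PND10 to 5.03 CPM in both PND30 libraries (log2 change 2.21 ± 0.41, adjusted p = 0.0444). Besides rank 17, rank 86 fell from 6.87 and 8.68 to 2.62 and 2.68 CPM (log2 change -1.51 ± 0.30, adjusted p = 0.0492) and rank 100 from 97.2 and 113 to 50.5 and 31.7 CPM (log2 change -1.32 ± 0.23, adjusted p = 0.0373). Rank 86 had the opposite call in mature oligodendrocytes, where it rose (log2 change 1.90, adjusted p = 0.0053). The counts depended on the libraries: without PND30 replicate 1 they were 11 and 5, and without PND30 replicate 2 they were 0 and 1. DESeq2 called 5 higher and 8 lower, and without a filter on low counts edgeR called 12 and 8.

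The make-up of the neuron class changed between these stages. Extra-SCN neurons numbered 1664 at PND10 and 485 at PND30, Cck+ neurons 21 and 1827, and Nms+ neurons 5 and 664, while Avp+ neurons numbered 1901 and 1618 and Vip+ neurons 989 and 980. Single clusters were looked at after the values had been seen and without a test. Rank 100 no longer separated the stages in extra-SCN and Avp+ neurons, and the margin was too small to be read in Vip+ neurons. There it was at 18.2 and 12.3 CPM at PND10 and at 10.1 and 11.5 CPM at PND30, on 17 to 53 UMIs per library. In extra-SCN neurons, where it was highest, it was at 171 and 241 CPM at PND10 and at 171 and 199.9 CPM at PND30, and in Avp+ neurons at 18 and 21.7 CPM, then at 19.9 and 15.4 CPM. Rank 86 overlapped between the stages in Avp+ neurons, with 10.0 and 3.40 CPM at PND10 and 3.22 and 4.80 CPM at PND30, and was lower at PND30 in extra-SCN neurons, with 5.41 and 17.0 CPM against 2.87 and 2.93 CPM. Rank 17 was lower at PND30 in extra-SCN neurons, with 93.2 and 83.8 CPM against 50.1 and 56.3 CPM, and in Avp+ neurons, with 13 and 17.0 CPM against 2.61 and 3.34 CPM, but not in Vip+ neurons, at 9.08 to 11.5 CPM throughout. Rank 2 was higher at PND30 in Avp+ neurons, with 0.295 and 0.392 CPM against 3.02 and 8.98 CPM, and in extra-SCN neurons, with 0.200 and 0 CPM against 2.39 and 7.04 CPM, on 0 to 43 UMIs per library. The fall of rank 100 in neurons was thus seen over the mixed class but not within the extra-SCN or Avp+ clusters. In Vip+ neurons the counts were too low to tell. Cck+ and Nms+ neurons, with 21 and 5 nuclei at PND10, were not compared.

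The 4 members with the highest level in neurons were ranks 41, 27, 77 and 48. Rank 27 was nearly level, between 242 and 269.6 CPM in the 6 libraries, while its level in mature oligodendrocytes fell. Rank 48 was at 274 and 277 CPM before PND10, 217 and 152 CPM at PND10, and 109 and 117 CPM at PND30. Rank 41 ranged from 149.8 to 507 CPM. Levels in neurons were not in 1 ratio to those in mature oligodendrocytes: among members with at least 10 UMIs in mature oligodendrocytes of PND30 replicate 2, the neuron level was a median of 1.19% of the oligodendrocyte level, with quartiles of 0.446% and 5.28% and a range of 0.0816% to 17.4%. In PND10 replicate 2 the median was 2.87%, with quartiles of 0.794% and 6.49%. The part of RNA released into the suspension in these counts was not tested.

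Member UMIs were spread over the neurons. The 1% of neurons with the highest share held 1.73% to 5.04% of the member UMIs of their library. By cluster, extra-SCN neurons had the highest share at PND10 and PND30, between 0.228% and 0.262%, and Avp+, Vip+, Cck+ and Nms+ neurons lay between 0.161% and 0.206%. One neuron of PND10 replicate 2 reached the 2.53% bound of oligodendrocyte nuclei; the highest count of rank 1 in a neuron of that library was 173 UMIs.

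**Figure D5:**
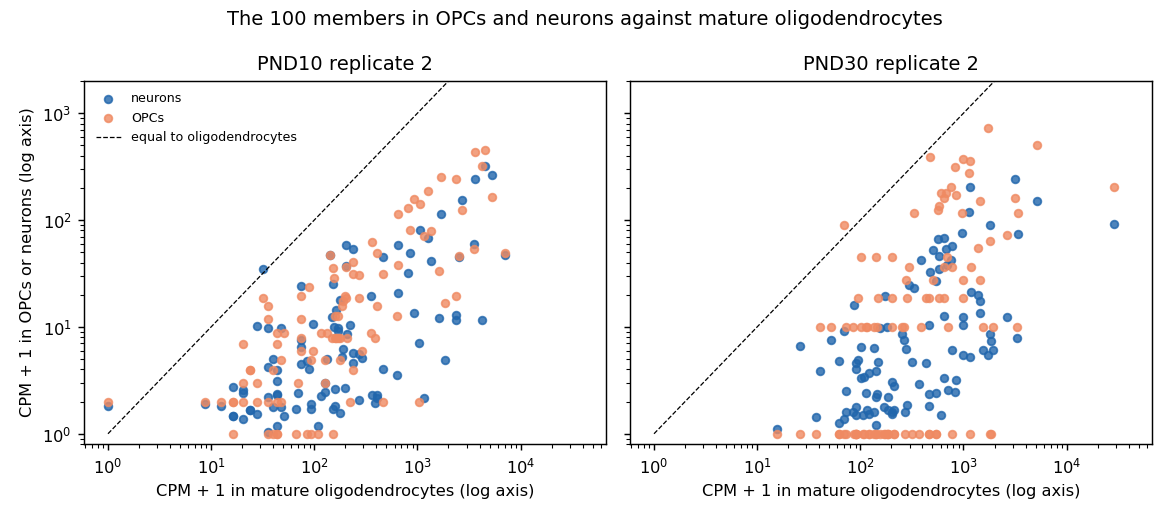
CPM + 1 of the 100 members in OPCs and in neurons (vertical log axis) against mature oligodendrocytes (horizontal log axis) of the second PND10 and the second PND30 library, with a dashed line of equal levels. Neurons stand at a median of 2.87% of the oligodendrocyte level in the PND10 library and 1.19% in the PND30 library, over a wide range of ratios.

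The trend over stages was also set against the trend in neurons of the same libraries, in 1 model with the library as a block. Of 92 members tested, 18 had a higher trend in OPCs than in neurons and 2 a lower one (edgeR interaction test, 17724 features, of which 3.99% and 3.79% were called in these directions). Among features with at least 50 CPM in mature oligodendrocytes the background was 8.91% and 5.11%. The neuron class changed in make-up over the stages, as above, and the paper found early SCN neurons mainly at GD17.5 and PND2. A trend in neurons can thus not be told apart here from a change in the mix of neurons. Of the 18 members, 10 were also called as rising in OPCs, 7 did not pass the test for the OPC trend and 1 was not tested for it, so that a higher trend in OPCs is not always a rise there. Rank 41 rose in OPCs from 178 and 353 CPM before PND10 to 577 and 498 CPM at PND30, while neurons went from 507 and 348 CPM to 178 and 149.8 CPM (difference of log2 trends 1.04 ± 0.13 per stage, adjusted p = 2.86e-14). The largest differences were those of rank 93 (2.26 ± 0.64 per stage, adjusted p = 0.0082), rank 40 (1.34 ± 0.30, adjusted p = 0.00022) and rank 35 (1.22 ± 0.25, adjusted p = 3.61e-05). None of these 3 passed the test without the GD17.5 library, ranks 93 and 40 did not with GD17.5 and PND2 pooled against PND10 and PND30, and rank 93 did not without PND30 replicate 2. The opposite sign was found for rank 84 (-2.08 ± 0.28, adjusted p = 1.38e-11) and rank 81 (-1.28 ± 0.40, adjusted p = 0.0235). Neither passed it without the GD17.5 library. Rank 81 was at 24.4 CPM in OPCs of GD17.5 and between 0 and 11 CPM in the other 5 libraries. Rank 40 stood at 8.72 and 16.3 CPM in OPCs before PND10, 20.1 and 22.5 at PND10, and 60.3 and 17.8 at PND30, against a fall from 9.31 to 1.37 CPM in neurons. Without the GD17.5 library 9 members had the higher trend in OPCs and 0 the lower one. These values share the OPC libraries with the trend above.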

How the data were processed

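Nuclei of pooled SCN tissue were profiled with 10x Genomics 3' v3.1 chemistry, which tags each molecule near its 3' end. The authors made UMI counts with Cell Ranger 5.0.1 on the mm10 reference and deposited them without normalization, per feature and barcode. They also deposited a table of cluster names for the nuclei kept after filters on UMIs (at least 750), features, mitochondrial and ribosomal reads and doublet score, made with Seurat 4, so doublets were removed before deposit. Nuclei were placed in a library by barcode within their stage.

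Counts were summed per library and cell class. Neurons are the annotated early SCN, Avp+, Vip+, Cck+, Nms+ and extra-SCN clusters. The sums were tested with edgeR 4.0.16 in R 4.3.3 (quasi-likelihood, TMM, filterByExpr, Benjamini-Hochberg adjusted p under 0.05 over all tested features). Stage order was a number in trends, and the interaction model held the library as a block. No edgeR test compared the level of a cluster with that of another, since clusters were defined on these nuclei. Counting intervals of OPCs and of early oligodendrocytes were set against those of neurons as a description. The interaction test compared trends only. Levels are CPM or percent of UMIs with exact Poisson intervals, shares of nuclei have Clopper-Pearson intervals (95%), and a count of 0 allows 3 counts. Python 3.11.15, numpy 2.4.6 and scipy 1.17.1 were used. Scripts were tested on simulated data. DESeq2 1.42.0, other size factors, filters, member rules, a replicate block and left-out libraries were alternatives.

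The members, tests and lists were chosen with earlier results of these data known. Values are given for ranks 1 to 8, the 3 most abundant members, the 4 highest and 4 lowest by share in early OPCs, the 4 highest in neurons, and the 3 largest rises and falls of each test.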

Additional observations from a re-analysis of the deposited data

Results flagged for a closer look

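The barcodes outside the authors' annotation were not used in the comparisons of cell classes. After thinning to 750 UMIs, some of them had a member share at or above 2.53%, the 5th percentile of annotated mature oligodendrocyte nuclei. There were 0 of these at GD17.5 and 5 at PND2, then 19 and 25 at PND10 and finally 23 and 35 at PND30. The 4 libraries of PND10 and PND30 thus held 102 such barcodes beside 158 annotated oligodendrocyte nuclei. In PND30 replicate 1 they outnumbered the annotated ones, 23 against 10. Their median was 879 to 5054 UMIs in the 5 libraries, and 1 of them had under 500 features. Their members made up 6.05% and 4.09% of UMIs at PND10 and 4.87% and 4.86% at PND30. The 43 members that rose with stage made up 2.43% and 1.12% of their UMIs at PND10 and 3.40% and 3.11% at PND30, and the 16 that fell made up 1.57% and 1.39%, then 0.395% and 0.507%. Which of the authors' filters left these barcodes out was not tested.

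The trend of a member over the stages differed between OPCs and neurons of the same libraries, by the edgeR interaction test, in 20 of the 92 members tested. The trend was higher in OPCs for 18 and lower for 2 (ranks 84 and 81), where 3.99% and 3.79% of all features tested were called in these directions, or 8.91% and 5.11% of those with at least 50 CPM in mature oligodendrocytes. Of the 18, 10 were called as rising in OPCs, 7 were not and 1 was not tested for that. Rank 84 fell in OPCs. The trend in neurons cannot be told apart here from the change in the mix of neuron clusters over the stages. Without the GD17.5 library the counts were 9 and 0.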

How the results depend on the processing

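With 1 or 2 libraries per stage and 4 to 79 oligodendrocyte nuclei per library, single libraries and the choice of members carried weight. The ratio of the summed member level of PND30 over PND10 in mature oligodendrocytes was 1.48; it was 0.991 for members chosen on PND10 nuclei alone, 2.16 for those chosen on PND30 nuclei alone, 1.35 with a minimum of 100 CPM, 1.61 with nuclei thinned to 750 UMIs, 1.60 with every nucleus weighted equally and 1.11 without rank 1. For members chosen on PND30 nuclei alone, the ratio of PND30 over GD17.5 in OPCs was 1.15 and that of PND30 over PND10 in neurons 0.838. The members higher and lower in mature oligodendrocytes numbered 14 and 33 when chosen on PND10 nuclei alone and 63 and 4 when chosen on PND30 nuclei alone. With libraries left out in turn these were 32 to 43 higher and 3 to 21 lower.

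In OPCs the trend over stages gave 6 to 17 members rising and 0 to 2 falling with libraries left out in turn, the lowest without GD17.5. It gave 8 rising with GD17.5 and PND2 against PND10 and PND30, 2 falling with no filter on low counts, and 4 falling among members chosen with a minimum of 100 CPM. Between PND10 and PND30 in OPCs, 3 members were higher with no filter and 1 to 3 with libraries left out. In neurons, DESeq2 called 5 higher and 8 lower and the test with no filter 12 and 8; with libraries left out the counts were 0 to 11 higher and 1 to 5 lower. In the comparison of the OPC and neuron trends, 9 to 16 members had the higher trend in OPCs and 0 to 2 the lower one with libraries left out; the latter count was 1 with DESeq2 and 1 with GD17.5 and PND2 against PND10 and PND30. The cause of these differences was not tested. Leaving out 1 library of a stage of 2 assumes that the lone one varies like the others.

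The replicate number is not said to pair libraries. The deviations of same-numbered libraries correlated at 0.117 in neurons, 0.0114 in OPCs and 0.000789 in mature oligodendrocytes. With the number as a replicate block, 5 members were higher in OPCs and 4 in neurons between PND10 and PND30, and the other counts stayed within 1.5 times. Of 147 alternatives of counts and levels, 109, of which 6 had the replicate block, kept the size and direction, and the other 38 are given above, those with libraries left out as ranges. None turned the direction of a named member's change, although 23 of 188 left it above the threshold.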
